A study of Rattus norvegicus with 11 samples.

Results

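miR-183, miR-96 and miR-182 come from a cluster of 3 microRNA genes that lie close together on 1 strand. Its members were taken as every row of the deposited microRNA table whose name, without the species prefix, begins with miR-183, miR-96 or miR-182 followed by a hyphen or the end of the name. This gave 4 of 1331 rows, rno-miR-183-5p, rno-miR-183-3p, rno-miR-96-5p and rno-miR-182, which are written below without the prefix. The table came from small RNA sequencing of liver from male Sprague-Dawley rats, aged 4 weeks when treatment began. In the TPN group, 5 rats received total parenteral nutrition, that is, feeding only through a vein, for 7 days. In the Control group, 6 rats received chow with intravenous 0.9% saline for 7 days. Each library is 1 rat, called here by its group and its rat number, and the series' title concerns ferroptosis in a rat model of the liver disease that accompanies intestinal failure. The liver label was matched by the hepatocyte microRNAs miR-122, miR-802, miR-192 and miR-194. Their rows summed to between 66369 and 295987 counts per 1000000 reads (CPM) in TPN and between 54078 and 413499 CPM in Control.

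MicroRNAs are short RNAs cut from hairpin precursors, and each guides the silencing machinery to messenger RNAs that pair with its seed, the bases 2 to 8 from its 5′ end. The members of this cluster are transcribed together and are best known from sensory cells of the retina and the inner ear, where seed mutations of miR-96 cause hearing loss in humans and mice. In mouse liver, the sterol-responsive factor SREBP-2 has been reported to activate the locus, and miR-96 and miR-182 to act on Insig2 and Fbxw7, which limit SREBP activity. The messenger RNA of FOXO1, a transcription factor that insulin restrains, has been reported as their target in human cells.

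The mature sequences are shown because the seeds decide which messenger RNAs each member can pair with. They are taken from RefSeq (build GRCr8), in which all 4 rows were found by name, with the seed in capitals.
miR-183-5p: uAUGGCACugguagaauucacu
miR-96-5p: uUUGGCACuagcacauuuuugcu
miR-182: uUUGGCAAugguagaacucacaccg

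The seeds differ from each other at few bases. Counted from the 5′ end of the first-named microRNA, miR-96-5p and miR-182 differ within the seed only by C8A, miR-183-5p and miR-96-5p only by A2U, and miR-183-5p and miR-182 by both A2U and C8A. Bases 2 to 7 of miR-96-5p and miR-182 are thus identical. Over their whole length the order is another one. miR-183-5p and miR-182 are identical at 18 of 22 compared bases (the others are U17C and U22A), miR-183-5p and miR-96-5p at 13 of 22, and miR-96-5p and miR-182 at 12 of 23. Among the 481 rat-named rows with a RefSeq sequence, no row outside the cluster shares bases 2 to 8 or bases 2 to 7 with any of these 3. miR-1271, which was to be named beside them, is not analysed here.

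In GRCr8 the mature miR-183-5p lies at chr4:59756106-59756127, miR-96-5p at chr4:59755901-59755923 and miR-182 at chr4:59752249-59752273, all on the minus strand. In the direction of transcription the order is therefore Mir183, Mir96 and Mir182. The hairpins of Mir183 and Mir96 are 97 bases apart, those of Mir96 and Mir182 are 3533 bases apart, and the whole group spans 3908 bases. The nearest protein-coding genes outside the span of the hairpins are Nrf1, at 14080 bases, and Ube2h, at 45949 bases. RefSeq also has Mir3553 (chr4:59756047-59756152) on the plus strand, opposite Mir183. Its mature form contains the complement of all 22 bases of miR-183-5p and is not analysed here. Whether the authors' counting used the strand is not given in the sources used here.

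The reads behind the CPM values could be recovered as whole numbers. They came to between 7552545 and 14788757 per library in TPN and between 1404858 and 10189899 in Control. Control 5, 12 and 19 had the fewest reads, and predicted microRNAs took 0.517% to 2.0% of their reads, against 0.0965% to 0.145% in the other 8 libraries. Fold changes are therefore also given without these 3 rats, and intervals for single rats are exact Clopper-Pearson 95% intervals, which cover counting error only. Bulk liver RNA cannot tell fewer cells of a type from less microRNA per cell. Nothing in the labels says how the rats were housed or handled in batches. The p-values set the difference between the groups against the spread between these rats. A batch that followed the groups could not be told apart from that difference.

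miR-182 had the most reads of the members in each of the 11 livers, followed by miR-183-5p and then miR-96-5p. Each mature microRNA is read whole, so these CPM levels need no correction for length. How evenly the libraries captured different sequences was not tested, so the shares and ranks below are those of reads. miR-182 made up 76.2% to 86.0% of the cluster's reads in TPN and 76.5% to 88.3% in Control. miR-183-5p made up 12.4% to 18.1% in TPN and 9.91% to 18.7% in Control, and miR-96-5p 1.61% to 5.68% in TPN and 1.80% to 4.77% in Control. The 3 shares did not overlap with each other in any group. Among all rat-named rows of a library ranked by level, miR-182 held ranks 32 to 55 in TPN and 19 to 54 in Control. miR-183-5p held ranks 76 to 105 in TPN and 62 to 102 in Control, and miR-96-5p ranks 145 to 179 in TPN and 113 to 161 in Control.

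The level of the whole cluster, summed over the 4 rows, came to a mean of 463 ± 221 CPM in the TPN rats (SD, n = 5) and of 999 ± 634 CPM in the Control rats (SD, n = 6). The single TPN rats had 724, 622, 216, 488 and 263 CPM (TPN 6, 8, 11, 15 and 16). The Control rats ran from 301 CPM (Control 12) over a median of 945 CPM to 2008 CPM (Control 19). The groups overlapped, since Control 12, 16 (641 CPM) and 18 (515 CPM) lay within the TPN range. This sum was not tested, because the members were chosen with earlier results known.

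The other arm of miR-183 was close to absent from the reads. miR-183-3p had 4 reads in TPN 8, 1 read in Control 16 and 0 reads in the other 9 libraries, where the upper bound of the exact interval of a count of 0 runs from 0.362 CPM (Control 7) to 2.63 CPM (Control 12). Pooled over all rats, the 3p arm gave 5 of 8321 reads of the hairpin, or 0.0601% (95% interval 0.0195% to 0.140%). The share was 4 of 3427 reads in TPN and 1 of 4894 in Control, and these intervals overlap (0.0318% to 0.299% in TPN, 0.000517% to 0.114% in Control). With a mean under 1 CPM this arm did not enter the comparison of the groups, so 3 of the 4 members were tested. No row for a 3p arm of miR-96 or miR-182 is analysed here.

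The comparison of TPN with Control asked whether the level of each member differed. All 3 tested members had a lower mean in TPN, and none passed at an adjusted p under 0.05 over all rows (limma-trend on log2(CPM + 1), Benjamini-Hochberg over 535 rows). No row of the table did either, with 0% called. The added 1 CPM makes these fold changes smaller than ratios of CPM for rare microRNAs. Of the rat-named rows tested, 79.3% had a negative log2 fold change and their median was -0.26, so each member is also given relative to that median.

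miR-96-5p had the member values that separated the groups best. TPN 6, 8, 11, 15 and 16 had 11.6, 12.6, 12.2, 14.1 and 6.22 CPM. The Control rats ran from 14.2 CPM (Control 12) over a median of 25.9 CPM to 36.2 CPM (Control 19). Each TPN rat lay below each Control rat, which 1.5% of all tested rows did in this direction, but the gap between TPN 15 and Control 12 was smaller than the counting error. The 20 reads of Control 12 give an interval of 8.70 to 22.0 CPM, and the 118 reads of TPN 15 one of 11.7 to 16.9 CPM. In the other 5 Control rats the lower bound of the interval lay above 16.9 CPM, the highest upper bound in TPN. The means were 11.4 ± 3.02 CPM in the TPN rats (SD, n = 5) and 26.5 ± 7.49 CPM in the Control rats (SD, n = 6). The log2 fold change was -1.14 ± 0.29 (SE), with an unadjusted p of 0.00155 and an adjusted p of 0.296 (limma-trend). It was -1.14 ± 0.26 without Control 5, 12 and 19 (limma-trend adjusted p = 0.351).

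miR-183-5p, the member nearest to the start of the transcript, had 89.4, 94.7, 39.1, 74.0 and 39.9 CPM in TPN 6, 8, 11, 15 and 16. In Control it ran from 52.7 CPM (Control 12) over a median of 132 CPM to 210 CPM (Control 7). The groups overlapped: Control 16 (89.3 CPM) and Control 12 lay within the TPN range, Control 18 (96.4 CPM) lay just above it, and Control 5, 7 and 19 (168 to 210 CPM) lay far above it. The means were 67.4 ± 26.6 CPM in the TPN rats (SD, n = 5) and 136 ± 65.0 CPM in the Control rats (SD, n = 6). The log2 fold change was -0.94 ± 0.39 (SE), with an unadjusted p of 0.0331 and an adjusted p of 0.296 (limma-trend). It was -0.94 ± 0.43 without Control 5, 12 and 19 (limma-trend adjusted p = 0.675).

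miR-182 had 623, 514, 164, 400 and 217 CPM in TPN 6, 8, 11, 15 and 16. In Control it ran from 234 CPM (Control 12) over a median of 786 CPM to 1772 CPM (Control 19). Control 12, 16 (525 CPM) and 18 (394 CPM) lay within the TPN range, and Control 5, 7 and 19 (1047 CPM or more) lay above it, so the groups overlapped. The means were 384 ± 194 CPM in the TPN rats (SD, n = 5) and 837 ± 569 CPM in the Control rats (SD, n = 6). The log2 fold change was -0.98 ± 0.51 (SE), with an unadjusted p of 0.0773 and an adjusted p of 0.296 (limma-trend). It was -0.82 ± 0.52 without Control 5, 12 and 19 (limma-trend adjusted p = 0.789). For each of the 3 members, the Control median was above the highest of the 5 TPN rats.

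**Figure D1:**
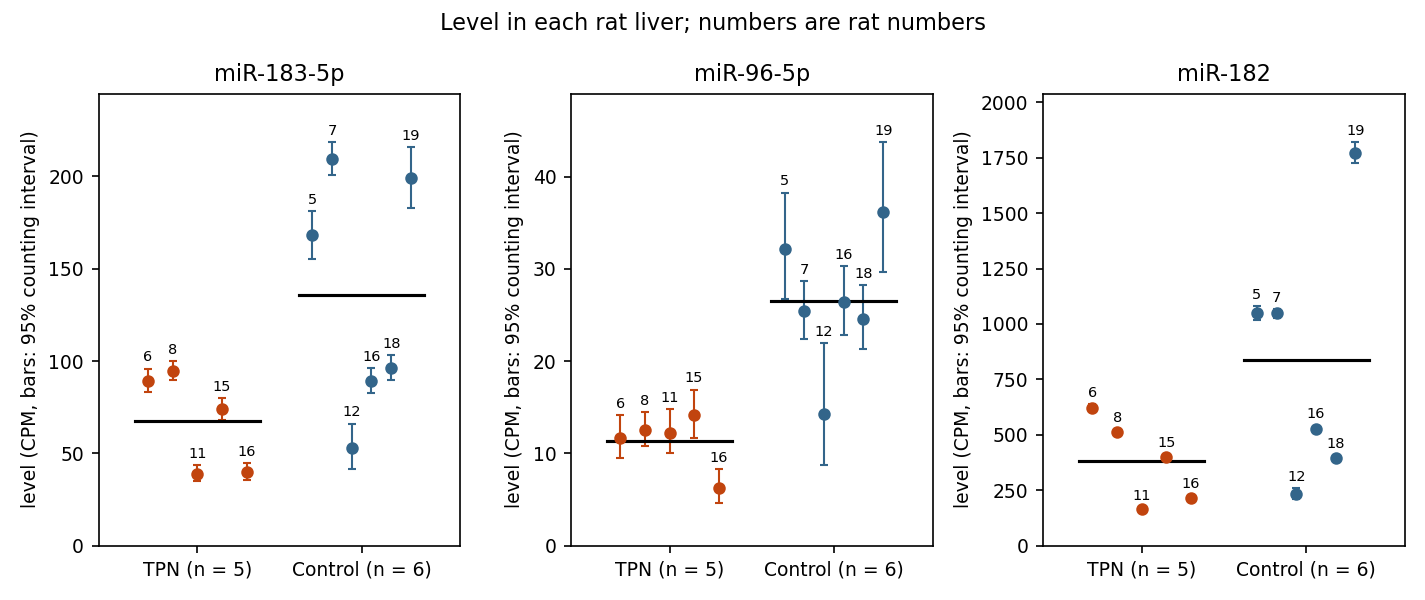
Level of miR-183-5p, miR-96-5p and miR-182 in CPM in each liver, TPN (5 rats) left and Control (6 rats) right. Points are single rats with their rat number, bars are 95% counting intervals and black lines are group means. For miR-96-5p the TPN rats sit between 6.22 and 14.1 CPM and the Control rats between 14.2 and 36.2 CPM, while the groups overlap for the other two.

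Of the 535 tested rows, 11.2% were lower in TPN at an unadjusted p under 0.05, and 2 of the 3 members were among them (miR-96-5p and miR-183-5p). miR-183-5p was no longer among such rows with TMM, RLE or upper-quartile scaling (unadjusted p of 0.233, 0.123 and 0.508), without Control 5, 12 and 19 (0.0605), or without TPN 11, TPN 16, Control 5, Control 7 or Control 19 alone (0.0662 to 0.0884). With upper-quartile scaling miR-96-5p was not either (0.162). miR-96-5p had the smallest p of the table, miR-183-5p ranked 34 and miR-182 ranked 126. Ordered by fold change among the 280 rat-named rows, 6 rows lay below miR-96-5p, 13 below miR-182 and 14 below miR-183-5p. The number below miR-182 was 4 without Control 12, 28 without TPN 11 and 30 without Control 19. That below miR-183-5p was 6 without Control 12 and 20 to 25 without TPN 11, TPN 16, Control 7, Control 18 or Control 19. Relative to the rat-named median, the log2 fold changes were -0.88 for miR-96-5p, -0.72 for miR-182 and -0.68 for miR-183-5p.

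**Figure D2:**
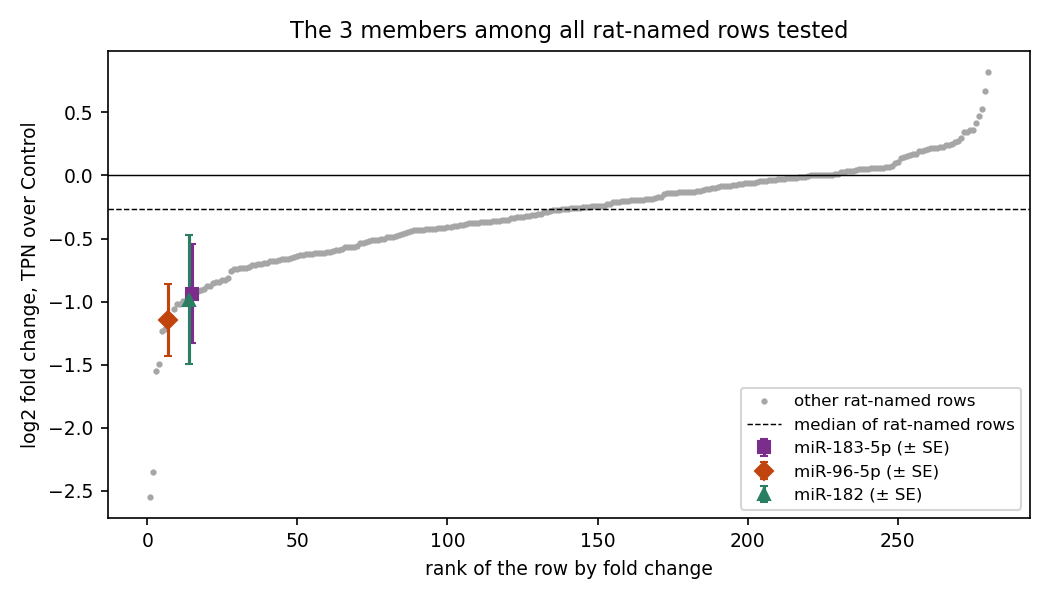
Log2 fold change (TPN over Control) of the 280 rat-named rows tested, ordered from the lowest to the highest along the horizontal axis, with the 3 members in colour and their standard errors. The members lie at the low end, at -1.14, -0.98 and -0.94, and the dashed line is the median of all these rows at -0.26.

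How far below 0 the members lay depended on how the libraries were scaled. Their distance from the median of the rat-named rows moved less, which is built into this measure. Scaling shifts every row of a library by nearly the same amount on the log2 scale, apart from the added 1 CPM. The median therefore shifts with the members. With size factors from the tested rows, the log2 fold changes of miR-183-5p, miR-96-5p and miR-182 were -0.46, -0.69 and -0.50 with TMM, and -0.29, -0.54 and -0.33 with upper-quartile scaling. The rat-named median stood at 0.16 with TMM and at 0.31 with upper-quartile scaling. Upper-quartile factors from all rows with reads turned all 3 positive (0.43, 0.12 and 0.41) while the median stood at 0.91. Relative to the median of the same scaling, the 3 members ranged from -0.86 to -0.63 with TMM, from -0.84 to -0.60 with upper-quartile factors from the tested rows and from -0.79 to -0.48 with those from all rows. With the last of these, 46 rat-named rows lay below miR-183-5p, 14 below miR-96-5p and 41 below miR-182. On the recovered reads, DESeq2 gave miR-96-5p an adjusted p of 0.0252, where 20.2% of rows were called lower in TPN, and edgeR gave it 0.126.

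**Figure D3:**
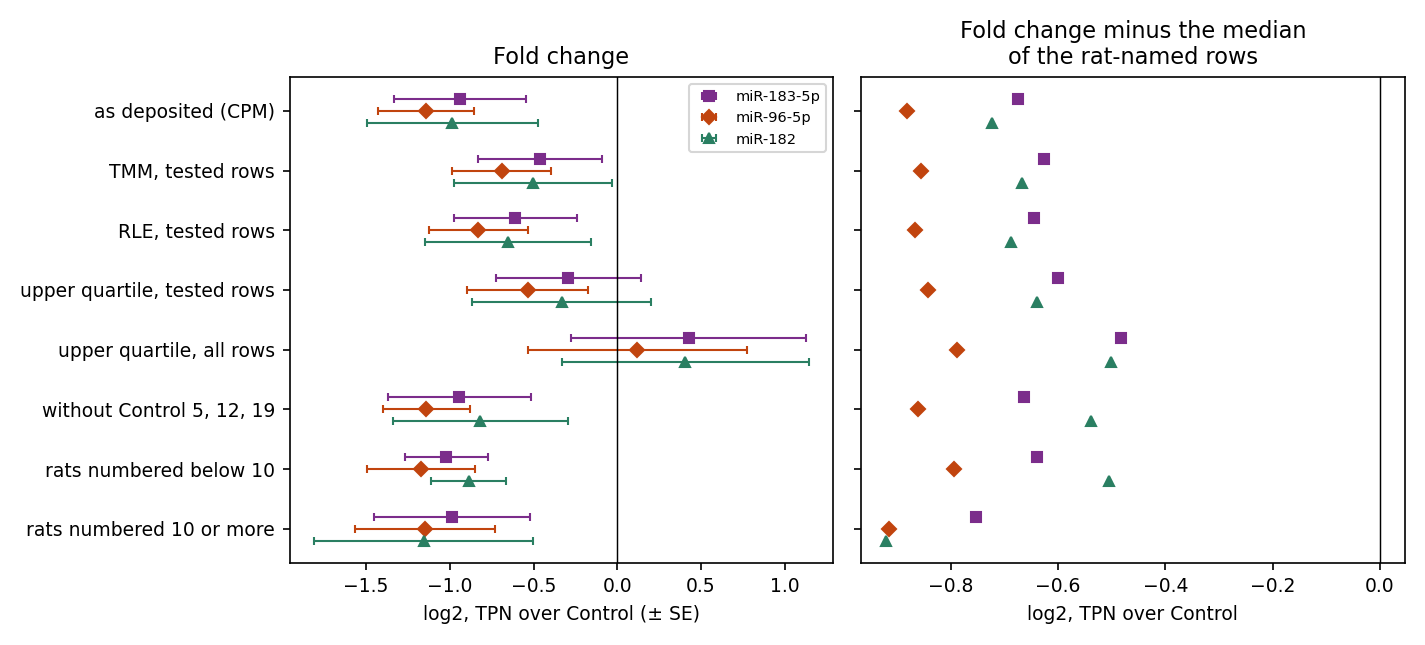
Log2 fold change (TPN over Control) of the 3 members under 5 scalings, without Control 5, 12 and 19, and in rats numbered below 10 or 10 or more. The left panel gives the fold change with its standard error and the right panel the same value minus the median of the rat-named rows. On the left the members move to positive values with upper-quartile factors from all rows, and on the right they stay between -0.92 and -0.48. Scaling shifts the members and the median together, so small movement between scalings on the right is built in.

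The labels name no batch. Rat numbers were looked at as a possible one. In both groups the means of miR-182 and miR-183-5p were higher in rats numbered below 10. The Control rats of the classes overlapped, and the difference between the classes was not tested. Among rats numbered below 10, miR-182 had 514 and 623 CPM in TPN, against 1047 and 1049 CPM in Control. Among rats numbered 10 or more it had 164 to 400 CPM in TPN, against 234 to 1772 CPM in Control. The mean of miR-183-5p was 92.1 CPM in TPN rats and 189 CPM in Control rats below 10 (2 each), and 51.0 CPM in 3 TPN rats and 109 CPM in 4 Control rats at 10 or more. miR-96-5p differed less between the classes. Its means were 12.1 CPM in TPN and 28.8 CPM in Control below 10. At 10 or more they were 10.9 CPM in TPN and 25.3 CPM in Control. All 3 members were lower in TPN in each class: the log2 fold changes were -1.02, -1.17 and -0.89 for miR-183-5p, miR-96-5p and miR-182 below 10 and -0.99, -1.15 and -1.16 at 10 or more. None passed within a class. The limma-trend adjusted p was 0.597 for each below 10, with 2 rats per group, and 0.536 for each at 10 or more. With the class as a term in the limma-trend fit, they were -1.0 ± 0.31, -1.16 ± 0.28 and -1.06 ± 0.44 (SE), with adjusted p of 0.274, 0.206 and 0.298.

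The proportions of the members were compared within each rat, as ratios of CPM + 1. The added 1 CPM leaves the ratios that involve miR-96-5p partly dependent on scaling and on the size of this addition: with 5 CPM in its place, the difference for miR-96-5p over miR-182 turned to 0.048 and that for miR-96-5p over miR-183-5p was -0.032. The log2 ratio of miR-182 over miR-183-5p was on average 2.42 ± 0.26 in the TPN rats (SD, n = 5) and 2.47 ± 0.41 in the Control rats (SD, n = 6), a difference of -0.047 ± 0.20 (SE). The log2 ratio of miR-96-5p over miR-183-5p averaged -2.41 ± 0.51 in TPN and -2.21 ± 0.48 in Control, a difference of -0.21 ± 0.30 (SE). For miR-96-5p over miR-182 the averages were -4.83 ± 0.75 in TPN and -4.67 ± 0.71 in Control, a difference of -0.16 ± 0.44 (SE). Each of these 3 differences stayed within the spread of the rats (2-sided exact permutation tests over all regroupings, p = 0.844, 0.487 and 0.701, each 0.844 after Benjamini-Hochberg adjustment). Tests of this size do not show that the proportions were alike: the standard errors are larger than the differences themselves.

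Between rats of a group, the 3 members varied by unequal amounts. With group means removed, the SD of log2(CPM + 1) was 0.43 for miR-96-5p, 0.71 for miR-183-5p and 0.97 for miR-182. For each member separately, the highest Control rat was set over the lowest, and these need not be the same rats for each member. The factors were 7.57 for miR-182, 3.98 for miR-183-5p and 2.54 for miR-96-5p. In TPN these factors were 3.79, 2.42 and 2.27. miR-96-5p took 5.68% of the cluster's reads in TPN 11 and 4.73% in Control 12, the liver with the lowest sum in each group. It took 1.61% in TPN 6 and 1.80% in Control 19, the liver with the highest sum in each group. The order was not strict, since TPN 16, with little of the cluster, had 2.37% and Control 18 had 4.77%. Because the sum is mostly miR-182, a member that varied less tends to take a smaller share where the sum is high. The share in Control 12 rests on 20 reads of miR-96-5p.

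miR-183-5p and miR-182 varied together from rat to rat. With group means removed, Pearson's r was 0.959 (permutation p = 0.00036, adjusted p = 0.00108) and Spearman's rho 0.873 (permutation p = 0.00181, adjusted p = 0.00543) over 11 rats, and r was 0.923 without TPN 11 and Control 12. For miR-183-5p with miR-96-5p, r was 0.732 (permutation p = 0.013, adjusted p = 0.0188) and rho 0.518 (permutation p = 0.133, adjusted p = 0.133). For miR-182 with miR-96-5p, r was 0.712 (permutation p = 0.0188, adjusted p = 0.0188) and rho 0.645 (permutation p = 0.0507, adjusted p = 0.0761). Without the same 2 rats these values of r were 0.705 and 0.721. After scaling, the relation of miR-183-5p with miR-96-5p rested on the 2 farthest rats, there TPN 16 and Control 12: without them r turned to -0.514 with TMM and to -0.301 with upper-quartile scaling. The permutations exchanged rats within their group 100000 times, and the 3 pairs were adjusted together. Neither relation of miR-96-5p passed without the shallow Control libraries: r was 0.448 with miR-183-5p and 0.364 with miR-182 without Control 5, 12 and 19, where 8 rats remained (permutation p = 0.538 and 0.582 after adjustment). Without Control 12 alone, r was 0.549 and 0.538 (permutation p = 0.119 after adjustment for both), and without Control 19 alone 0.686 and 0.640 (permutation p = 0.0533 and 0.0577 after adjustment). Among the 7 rats numbered 10 or more, r was 0.967 for miR-183-5p with miR-182 (permutation p = 0.0615 after adjustment), 0.826 for miR-183-5p with miR-96-5p and 0.734 for miR-182 with miR-96-5p (0.0821 and 0.0973), and the 4 rats numbered below 10 were too few.

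In 4 rats with like levels of miR-182, the TPN livers held less miR-96-5p. TPN 8 and TPN 15, with 514 and 400 CPM of miR-182, had 12.6 and 14.1 CPM of miR-96-5p. Control 16 and Control 18, with 525 and 394 CPM of miR-182, had 26.4 and 24.6 CPM. The counting intervals of these TPN livers (10.8 to 14.5 and 11.7 to 16.9 CPM) lay below those of these Control livers (22.8 to 30.3 and 21.3 to 28.3 CPM). The same 4 rats had miR-183-5p at 94.7 and 74.0 CPM in TPN and 89.3 and 96.4 CPM in Control. These rats were picked after their values were seen, and the pattern was not tested. Each TPN rat lay below each Control rat in miR-96-5p, so any choice of rats would have given this direction. The 4 rats therefore add nothing on miR-96-5p at a given level of miR-182. The pattern does not appear in the mean ratios above. There TPN 11, with 12.2 CPM of miR-96-5p beside 164 CPM of miR-182, has the highest ratio of all rats.

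**Figure D4:**
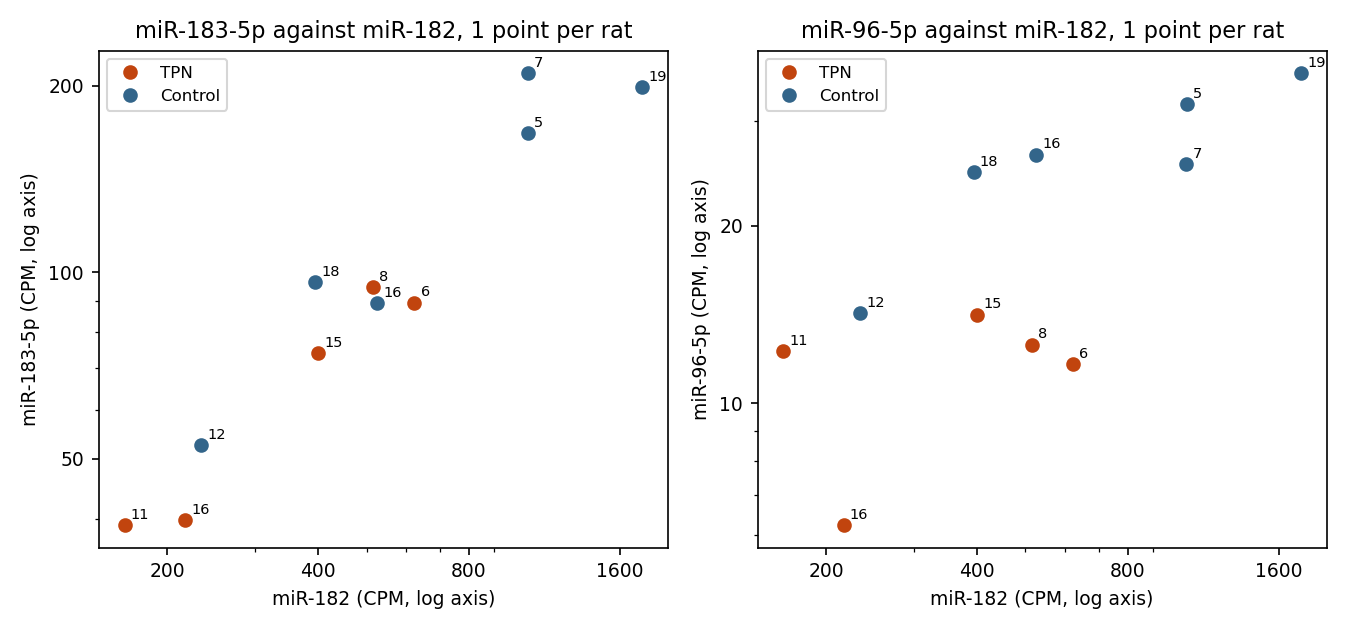
Level of miR-183-5p (left) and miR-96-5p (right) against miR-182 in CPM, on log axes, with 1 point per rat and its rat number. On the left both groups follow 1 band, and on the right the TPN points between 400 and 623 CPM of miR-182 sit at 11.6 to 14.1 CPM of miR-96-5p, below the Control points at 394 and 525 CPM.

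The rows most like each member were those with the highest Pearson correlation of log2(CPM + 1) over the 11 rats, group means removed, among 165 other rat-named rows of at least 10 CPM. These values are descriptions over rows that share the libraries and their depth. For miR-183-5p they were miR-450a-5p (0.930), let-7e-5p (0.914), miR-335 (0.909), miR-429 (0.897) and miR-365-3p (0.875). For miR-182 they were miR-450a-5p (0.946), miR-145-5p (0.930), miR-365-3p (0.921), miR-30e-5p (0.917) and miR-143-3p (0.916). For miR-96-5p they were miR-221-5p (0.818), miR-429 (0.715), miR-199a-5p (0.694), miR-425-5p (0.643) and miR-365-3p (0.642). No row was more like miR-182 than miR-183-5p, or the reverse. miR-96-5p, by contrast, would have ranked 30 for miR-183-5p and 43 for miR-182. Many microRNAs from other genes thus tracked these more closely than their own neighbour did. miR-96-5p also had the fewest reads of the tested members, with 20 in Control 12 and 47 in TPN 16. How far counting error lowered its correlations was not tested. In likeness to miR-96-5p itself, however, miR-183-5p would have ranked 2 (0.732) and miR-182 would have ranked 3 (0.712).

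Red blood cell microRNAs had low values in TPN as well. The tested rows of miR-451 and miR-144 (3 of 4 in the list with miR-486) all had negative log2 fold changes, also with TMM and upper-quartile scaling, with a median of -1.21 as deposited, beside -0.26 over all rat-named rows. At an unadjusted p under 0.05, 3 of 3 were lower in TPN as deposited, beside 11.2% of all tested rows, and 1 of 3 with TMM or upper-quartile scaling. The list summed to 31.3 to 261 CPM in TPN and 133 to 802 CPM in Control. miR-451-5p ranked 28, 24 and 27 among the 165 rows in likeness to miR-183-5p, miR-96-5p and miR-182 (r of 0.740, 0.459 and 0.803). The part of red cells in the levels of the cluster was not tested.

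Epithelia are known to express the cluster in several organs, and the marker rows counted for them mostly had positive values. miR-203a-3p and miR-203b-3p, not counted because of the letter in their names, had negative log2 fold changes. They were -0.83 ± 0.26 and -1.02 ± 0.52 (SE), with unadjusted p of 0.00658 and 0.0733 and adjusted p of 0.296 for both (limma-trend). Of 8 tested rows of miR-200a, miR-200b, miR-200c, miR-141, miR-429 and miR-375, 2 had negative log2 fold changes as deposited, and the median was 0.21. Of all rat-named rows 79.3% were negative. With TMM or upper-quartile scaling 1 of the 8 was negative, where the rat-named median itself stood at 0.16 and 0.31. The list summed to 654 to 1850 CPM in TPN and 584 to 1280 CPM in Control. Of the 2 epithelial rows named by the rule, miR-200b-3p had 713 CPM ± 348 in TPN and 597 CPM ± 231 in Control, and miR-200c-3p had 9.21 CPM ± 1.94 in TPN and 17.8 CPM ± 6.21 in Control (SD, n = 5 and 6). The stellate cell, fibroblast and smooth muscle list, to which miR-143, miR-145 and miR-199a belong, had 7 tested rows. As deposited 7 of 7 were negative with a median of -0.43, beside 79.3% and -0.26 over all rat-named rows. With upper-quartile scaling 2 were negative and with TMM 3, where the rat-named median itself stood at 0.31 and 0.16.

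Both lists tied to the reported functions of the cluster had medians above that of all rat-named rows. Of 18 tested rows of microRNAs with published links to hepatic lipid and sterol regulation, among them miR-33, which lies within the gene of SREBP-2, and the abundant miR-148a, 14 had negative values as deposited, beside 79.3% of all rat-named rows, and 3 with TMM or upper-quartile scaling, and the median was -0.08 as deposited. Of 6 tested rows with published links to FOXO1, 5 had negative values as deposited and 0 with either scaling, and the median was -0.08 as deposited. The median of all rat-named rows itself stood at 0.16 with TMM and at 0.31 with upper-quartile scaling. No member of the 9 lists passed over all rows (limma-trend, Benjamini-Hochberg), and at an unadjusted p under 0.05 these lists had 2 of 18 and 0 of 6 rows lower in TPN, beside 11.2% of all tested rows.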

How the data were processed

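Liver small RNA of 11 rats (5 TPN, 6 Control) was sequenced with an Illumina HiSeq 4000 instrument, as the labels' protocols state. A single table of CPM values was deposited by the authors, in which each column sums to 1000000. DESeq2 is named without a role or version, per the submitters' processing notes. For the aligner, counting rules, strand setting and build, the sources used here give nothing.

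Reads were recovered by dividing each column by its smallest value, and 100% of the values above 0 were then whole numbers to within 0.001. The test was limma-trend on log2(CPM + 1) over the 535 rows averaging 1 CPM or more, with no covariate and no further scaling (R 4.3.3, limma 3.58.1). edgeR 4.0.16, DESeq2 1.42.0 and limma-voom on the recovered reads were alternatives. Ratios were compared by exact permutation. No 2 libraries were alike within sampling noise (closest pair Control 16 and 18, chi-square 73.4 per degree of freedom). The groups share 1 rat number, so samples were not paired.

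The members and lists were chosen with earlier results of these data known. Named rows are the members, rows sharing their seed, the 5 rows most like each and selected list members. Lists took rows by exact number and letter, so rows such as miR-203a stayed outside a list that has miR-203. Figures were drawn with matplotlib 3.10.9.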

Additional observations from a re-analysis of the deposited data

How the results depend on the processing

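The log2 fold changes of the 3 members kept a negative sign under all scalings, filters, pseudocounts, tests and left-out rats tried except one. Upper-quartile factors from all rows, added after seeing the data, gave 0.43 for miR-183-5p, 0.12 for miR-96-5p and 0.41 for miR-182. The single call was that of miR-96-5p with DESeq2 (-0.90, adjusted p = 0.0252, with 113 rows called in all); over all alternatives its adjusted p ran from this value to 0.873. The other fits called 0 rows. With each rat left out in turn, the fold changes ranged from -1.18 to -0.77 for miR-183-5p, from -1.30 to -0.96 for miR-96-5p and from -1.29 to -0.71 for miR-182.

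Of rows at an unadjusted p under 0.05, 60 were lower in TPN. The count was 26 with TMM, 28 with RLE, 31 with upper-quartile scaling, 27 with TMM factors from all rows, 33 among rat-named rows, 31 without miR-148a-3p in the total, 23 among rows averaging 10 CPM or more, 160 with edgeR, 183 with DESeq2, 6 with limma-voom, 36 without Control 5, 12 and 19, 19 in rats numbered below 10, 22 in the others, and 21 to 153 with a rat left out. The count of 1 higher row became 9, 6, 18 and 7 with those 4 scalings, 33 with upper-quartile factors from all rows, 2 without miR-148a-3p, 6 with no filter, 8 with edgeR, 9 with DESeq2, 8 with limma-voom, 8 without Control 5, 12 and 19, 0 in rats numbered below 10, and 1 to 3 with a rat left out.

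Of the differences in log2 ratio, 2 of 3 changed sign. miR-182 over miR-183-5p gave 0.13 without Control 5, 12 and 19, 0.13 in rats numbered below 10, and -0.14 to 0.090 with a rat left out (0.047 without TPN 11, 0.090 without Control 19). miR-96-5p over miR-182 gave 0.048 with a pseudocount of 5, 0.0058 in rats numbered 10 or more, and -0.46 to 0.039 with a rat left out (0.039 without TPN 6). miR-96-5p over miR-183-5p stayed negative, from -0.41 to -0.099 with a rat left out and at -0.032 with a pseudocount of 5. Pearson's r of miR-96-5p with miR-183-5p was 0.672 with TMM and 0.783 with upper-quartile scaling, 0.448 without Control 5, 12 and 19, 0.826 in rats numbered 10 or more, and 0.549 to 0.835 with a rat left out; with miR-182 it was 0.587, 0.714, 0.364, 0.734, and 0.538 to 0.838. In these 4 settings, and without Control 12 or Control 19, the adjusted permutation p of both was above 0.05. That of miR-183-5p with miR-182 was 0.967 in rats numbered 10 or more (adjusted permutation p = 0.0615) and 0.939 to 0.971 with a rat left out. The causes of these shifts were not tested. No paired analysis was possible because the groups share only 1 rat number. Of the tested members, miR-96-5p had the fewest reads, with 20 reads in Control 12 and 47 in TPN 16.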

Other observations

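Over the whole table, 8 of 535 tested rows had every TPN rat below every Control rat. Of these, 4 were rat-named: miR-96-5p, miR-505-3p (8.16 to 20.5 CPM in TPN, 20.8 to 44.5 CPM in Control), miR-143-5p (5.69 to 7.98 CPM in TPN, 8.54 to 14.9 CPM in Control) and miR-6329 (60.1 to 81.9 CPM in TPN, 83.6 to 112 CPM in Control). The other 4 were predicted rows. These were named after their values were seen, and none passed over all rows (limma-trend, adjusted p = 0.296 for each rat-named one).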
